A study of Mus musculus with 18 samples.

Results

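Gpx1, Gpx4, Txnrd1, Txnrd2, Sephs2 and Secisbp2 were followed through total RNA, ribosome footprints and initiation footprints of mouse fetal liver erythroblasts, the nucleated precursors of red blood cells. They were taken by name as 5 genes of selenocysteine-containing enzymes and the gene of a factor that reads the selenocysteine signal, and are 6 of the 20683 genes in the count table. Their leader, coding sequence (CDS) and 3′ UTR lines number 18, and 8 of the 9025 positions kept in the harringtonine data carry the name of a member. The cells were Trp53 -/- on an FVB/n x C57BL/6 background in every group, the controls included, so nothing here describes cells with p53. All were grown in StemPro medium with erythropoietin (0.5 U/ml), stem cell factor and dexamethasone (1 nM). They were then either given tunicamycin at 2.5 ug/ml for 1.5 h or left untreated. Tunicamycin blocks N-glycosylation in the endoplasmic reticulum and served, per the series design, to bring about eIF2 phosphorylation, a brake on translation initiation. Each treatment has 3 total RNA libraries, 3 libraries of footprints fixed with cycloheximide (100 ug/ml for 5 min) and 3 with harringtonine (2 ug/ml), which holds ribosomes at start codons. That makes 18 libraries in 6 groups of 3, and the labels do not say whether the libraries of a group came from separate cultures or animals, so the p-values cover no more than library-to-library spread, which may be technical.

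Selenoproteins carry selenocysteine, which is inserted at a UGA codon that would otherwise end translation. A hairpin in the 3′ UTR, the SECIS element, is bound by the protein that Secisbp2 encodes and brings in the elongation factor with the selenocysteine tRNA. Sephs2 makes the selenium donor for that tRNA and is itself a selenoprotein. Gpx1 and Gpx4 encode glutathione peroxidases, of which Gpx4 reduces lipid hydroperoxides in membranes, and Txnrd1 and Txnrd2 encode the cytosolic and the mitochondrial thioredoxin reductase. In red cells, peroxidases and the thioredoxin system limit oxidative damage to haemoglobin and the membrane.

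On GRCm38.p6, RefSeq places Gpx1 at chr9:108339080-108340342, Gpx4 at chr10:80047166-80056439 and Txnrd1 at chr10:82833951-82897724. Txnrd2 lies at chr16:18426417-18479073 and Secisbp2 at chr13:51651682-51684044, all 5 on the forward strand, and Sephs2 at chr7:127271879-127274059 on the reverse strand. The start regions of Txnrd1 and Gpx4 are shown because harringtonine reads can be read against them. That of Txnrd2 is shown for the distance from its annotated start to its first ATG. These stretches come from RefSeq promoter windows on GRCm38.p6, all on the forward strand, written 5′ to 3′ with each ATG of interest in capitals. The Txnrd1 stretch is chr10:82860358-82860387 and begins at the first kept harringtonine position. The Gpx4 stretches are chr10:80053619-80053648, around the upstream ATG known to start the mitochondrial form, and chr10:80053674-80053703, beginning at the first kept position. The Txnrd2 stretch is chr16:18426432-18426461, around the first ATG after the annotated start.
Txnrd1 site: gtttttagccgccATGcagagcttttctga
Gpx4 upstream ATG: tccggccgccgagATGagctggggccgtct
Gpx4 first kept position: ctgtgcggggctctggctgcgcctggtctg
Txnrd2 first ATG: aggtccccggaccATGgcggcgATGgtggc

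RNA totals ran from 14456029 to 43533774 reads per library under tunicamycin and from 12883350 to 48992797 in untreated cells. CDS footprints came to 4531945 to 5086129 per library under tunicamycin and 6415127 to 6652042 in untreated cells. Reads at kept harringtonine positions came to 558625 to 648169 under tunicamycin and 446561 to 523868 in untreated cells. All 12 erythroid markers reached 5 CPM (counts scaled to the same library total) of RNA, with sums of 6006 to 6252 CPM under tunicamycin and 5933 to 6193 CPM in untreated cells. The marker lists of endothelium and stroma, of hepatocytes, of macrophages and of neutrophils and monocytes each had 0 genes at 5 CPM, with summed levels of at most 2.18 CPM in any library. Mertk, Vcam1, Ly6c2, Ly6g, Serpina1a and Ttr among them were at 0. The megakaryocyte list had 1 of 5 markers at that level, Gp5, and summed to 95.4 to 105.4 CPM under tunicamycin and 112.4 to 119.2 CPM in untreated cells. The mast cell list had 1 of 4, Ms4a2, and summed to 107.5 to 167.9 CPM under tunicamycin and 103.3 to 167.8 CPM in untreated cells. The part of such cells in the results was not tested. In bulk samples, fewer cells that express a gene and less RNA per cell cannot be told apart.

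The first comparison asked whether the RNA of these genes had changed by 1.5 h, and none of the 6 passed. Values are CPM scaled by the trimmed mean of M values (TMM), which sets the typical gene near no change. A gene passes at a Benjamini-Hochberg adjusted p under 0.05 over all genes in edgeR's quasi-likelihood test, and every adjusted p below is from that test unless another tool is named. Over all 10643 genes tested, 16 passed (0.15%), all higher, and 1324 (12.4%) had an unadjusted p under 0.05. The test has no term for the replicate number, since the labels do not say whether it marks a shared culture. With the replicate number as a block 410 genes passed, and again none of the 6. The lowest adjusted p of a member with the block was 0.0646, for Gpx4.

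The glutathione peroxidase and selenophosphate genes lay lower in RNA under tunicamycin, by small amounts that did not pass. Gpx1 stood at 2607, 2611 and 2240 CPM under tunicamycin, against 2645, 2843 and 2841 CPM in untreated cells. Its groups did not overlap, but the nearest tunicamycin and untreated libraries were close together. The log2 change (tunicamycin over untreated, as for all changes here) was -0.16 ± 0.08 (SE, adjusted p = 0.425). Gpx4 stood at 209, 236 and 203 CPM under tunicamycin, against 233, 257 and 236 CPM in untreated cells. Library 2 was the highest in both groups, and the groups overlapped (-0.17 ± 0.07, adjusted p = 0.384). Sephs2 stood at 243, 233 and 223 CPM under tunicamycin, against 256, 246 and 256 CPM in untreated cells, and its groups did not overlap (-0.12 ± 0.06, adjusted p = 0.441). Thus 2 of the 6 genes, Gpx1 and Sephs2, had every tunicamycin library below every untreated one, where 8.29% of all genes tested did, and none had the reverse, where 9.95% did.

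The RNA of both thioredoxin reductases and of Secisbp2 lay close together in the 2 treatments. Txnrd1 had 292, 258 and 233 CPM under tunicamycin, against 276, 257 and 244 CPM in untreated cells. Txnrd2 had 61.6, 68.4 and 72.2 CPM under tunicamycin, against 65.7, 73.8 and 60.9 CPM in untreated cells. Secisbp2 had 48.5, 49.4 and 48.3 CPM under tunicamycin, against 52.9, 45.9 and 44.7 CPM in untreated cells. All of these groups overlapped, and for Secisbp2 the untreated libraries spread more widely than the tunicamycin ones. The log2 changes were 0.01 for both Txnrd1 and Txnrd2 and 0.02 for Secisbp2, with adjusted p from 0.932 to 0.982. Approximate 95% intervals ran from -0.16 to 0.17 for Txnrd1, from -0.15 to 0.18 for Txnrd2 and from -0.13 to 0.17 for Secisbp2.

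**Figure D1:**
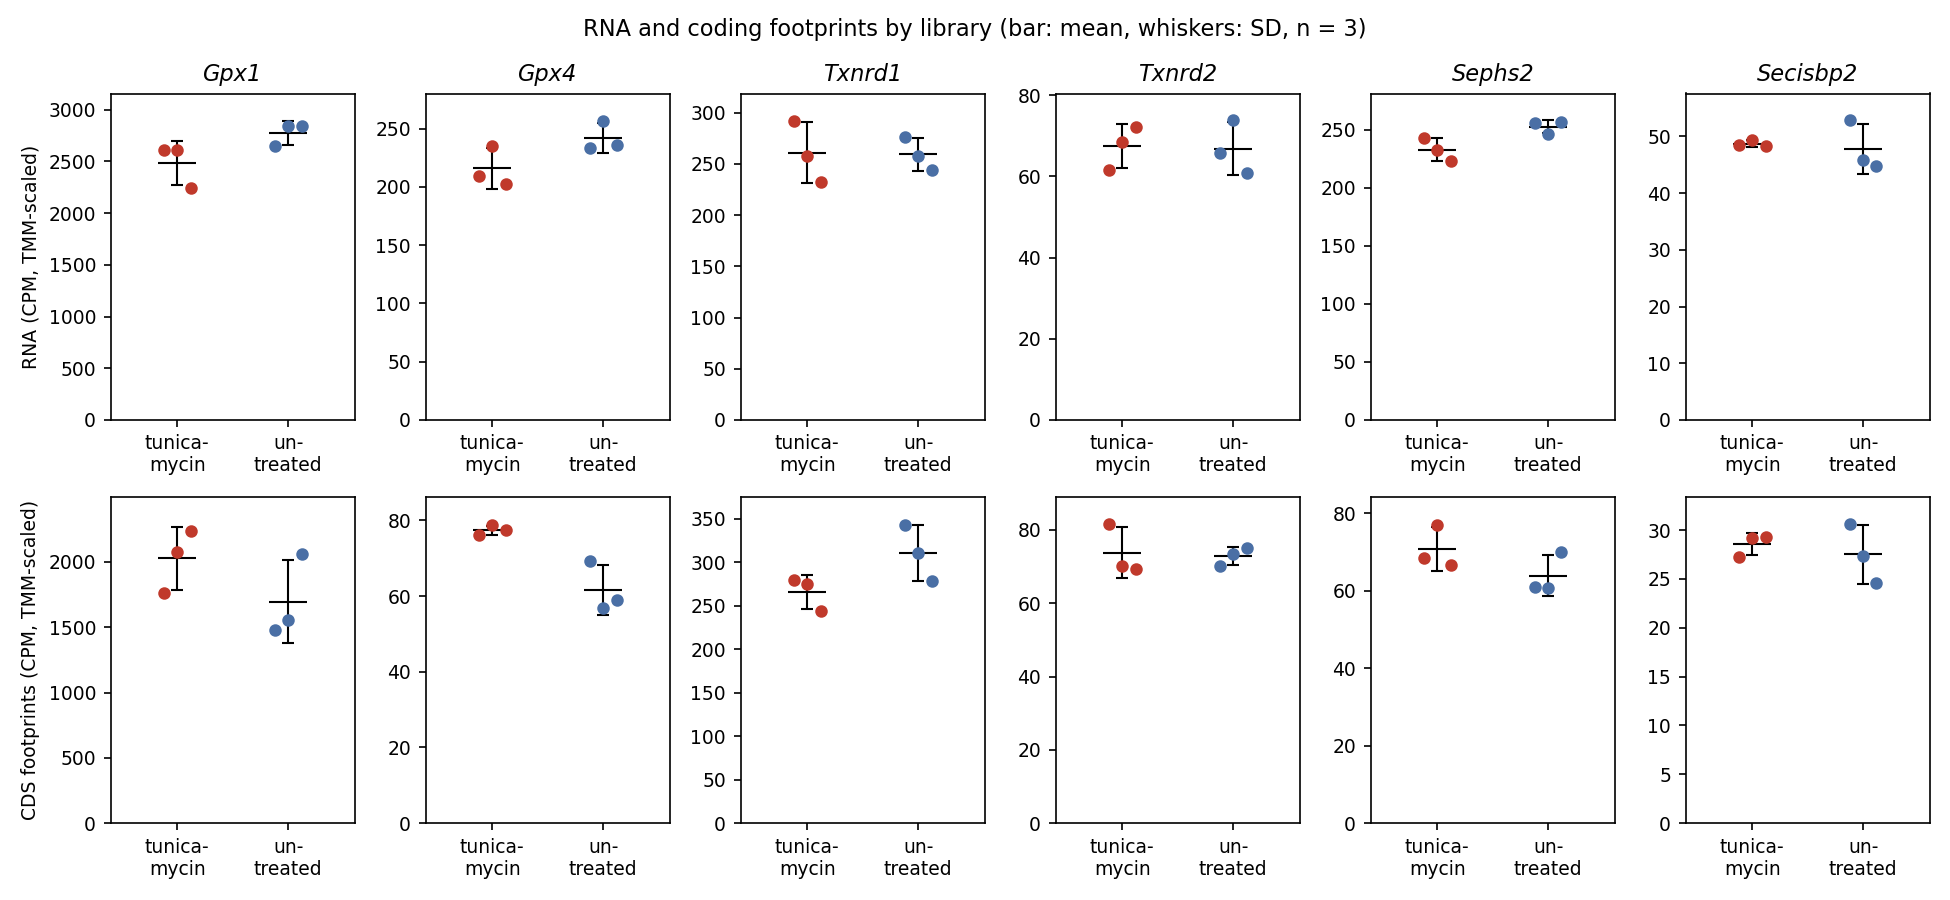
TMM-scaled CPM of RNA (upper row) and of CDS footprints (lower row) for each gene, 1 point per library, with tunicamycin left and untreated right in each panel. Horizontal bars are means and whiskers the SD of 3 libraries. The Gpx4 CDS points under tunicamycin, 76.2 to 78.7 CPM, lie above the untreated points, 56.9 to 69.3 CPM, while its RNA points overlap.

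Footprints on the coding sequence, scaled by TMM as for RNA, show each gene's part of all coding footprints and not occupancy per mRNA. None of the 6 genes passed here either. Of 9265 genes tested, 239 passed (2.58%), 165 higher (1.78%) and 74 lower (0.799%), and 1542 (16.6%) had an unadjusted p under 0.05. Relative to the typical gene, the peroxidase genes lay higher and Txnrd1 lower under tunicamycin. The counts do not split a coding sequence at its UGA codon, so occupancy before and after the selenocysteine was not analysed here.

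Gpx4 footprints came to 372, 356 and 394 reads under tunicamycin, against 457, 366 and 387 reads in untreated cells. Scaled for depth, they were 76.2, 78.7 and 77.4 CPM under tunicamycin, against 69.3, 56.9 and 58.8 CPM in untreated cells. The tunicamycin libraries averaged 77.4 ± 1.26 CPM and all lay above the untreated libraries, which averaged 61.7 ± 6.69 CPM (SD, n = 3 each, exact 2-sided permutation p = 0.1, the smallest that 3 against 3 allow). The log2 change of 0.33 ± 0.10 did not pass (adjusted p = 0.106). Gpx4 was the 1 of the 6 with every tunicamycin library above every untreated one, where 11.3% of all genes tested were, and none of the 6 had the reverse, where 10.3% did. RefSeq lists the pseudogenes Gpx4-ps1 and Gpx4-ps2, and the sources used here do not give how reads shared with them were counted, so the Gpx4 counts are uncertain to that extent.

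Gpx1 footprints were 1762, 2078 and 2239 CPM under tunicamycin, against 1477, 1552 and 2060 CPM in untreated cells. Library 3 was the highest in each group, and the groups overlapped because untreated library 3 reached the range of the tunicamycin libraries. The change of 0.26 ± 0.12 did not pass (adjusted p = 0.304). Without 1 library in turn it ranged from 0.16 (without untreated library 1) to 0.41 (without untreated library 3), with adjusted p from 0.0476 to 0.671, and passed only in the case without untreated library 3.

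Sephs2 footprints were 68.6, 77.1 and 66.6 CPM under tunicamycin, against 61.0, 60.7 and 70.1 CPM in untreated cells. Again untreated library 3 lay within the tunicamycin range, and the change was 0.15 ± 0.10 (adjusted p = 0.521).

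Txnrd1 moved the other way. Its footprints were 279, 275 and 244 CPM under tunicamycin, against 343, 310 and 279 CPM in untreated cells. The highest tunicamycin library and the lowest untreated library met at 279 CPM, so the groups just overlapped, and the change of -0.22 ± 0.10 did not pass (adjusted p = 0.254). Txnrd1 shares 1305 bases with Eid3 and overlaps the long noncoding RNA gene Gm38560 in RefSeq. The sources used here do not give whether counting used strand, so reads of overlapping genes cannot be told apart.

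Txnrd2 footprints were 81.7, 70.3 and 69.3 CPM under tunicamycin, against 70.2, 73.5 and 75.0 CPM in untreated cells. Tunicamycin library 1 was the highest of all 6 and library 3 the lowest, and the change was 0.02 ± 0.10 (adjusted p = 0.957). Secisbp2 footprints were 27.2, 29.2 and 29.3 CPM under tunicamycin, against 30.6, 27.3 and 24.6 CPM in untreated cells, and overlapped (0.05 ± 0.13, adjusted p = 0.893). Approximate 95% intervals of the change ran from -0.18 to 0.21 for Txnrd2 and from -0.20 to 0.30 for Secisbp2.

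Translational efficiency sets CDS footprints against RNA, fitted as an assay by treatment interaction over 12 libraries. Of 10154 genes tested, 112 passed (1.1%), 80 higher (0.788%) and 32 lower (0.315%), and 1483 (14.6%) had an unadjusted p under 0.05. None of the 6 genes passed, and their estimates ran from -0.23 for Txnrd1 to 0.49 for Gpx4. The RNA and footprint estimates had opposite signs in Gpx1, Gpx4 and Sephs2, so their ratio moved further than either part.

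Gpx4 had the largest estimate of the 6 at 0.49 ± 0.12, with an unadjusted p of 0.000885 and an adjusted p of 0.0629. It passed with DESeq2 (adjusted p = 0.0102), with no filter on low counts (0.011), with a floor of 5 CPM (0.0482) and without untreated cycloheximide library 1 (0.58, 0.0462), and with the replicate number as a block (0.00747). Without 1 library in turn it ranged from 0.43 to 0.58. Gpx1 stood at 0.41 ± 0.16 (adjusted p = 0.231). It passed with no filter (0.0193), with the block (0.0139) and without untreated cycloheximide library 3 (0.57, adjusted p = 0.0362). Sephs2 stood at 0.26 ± 0.11 (adjusted p = 0.290) and Txnrd1 at -0.23 ± 0.13 (adjusted p = 0.444). Txnrd2 (0.0036 ± 0.13) and Secisbp2 (0.03 ± 0.14) lay near 0, with approximate 95% intervals from -0.25 to 0.26 and from -0.25 to 0.30.

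**Figure D2:**
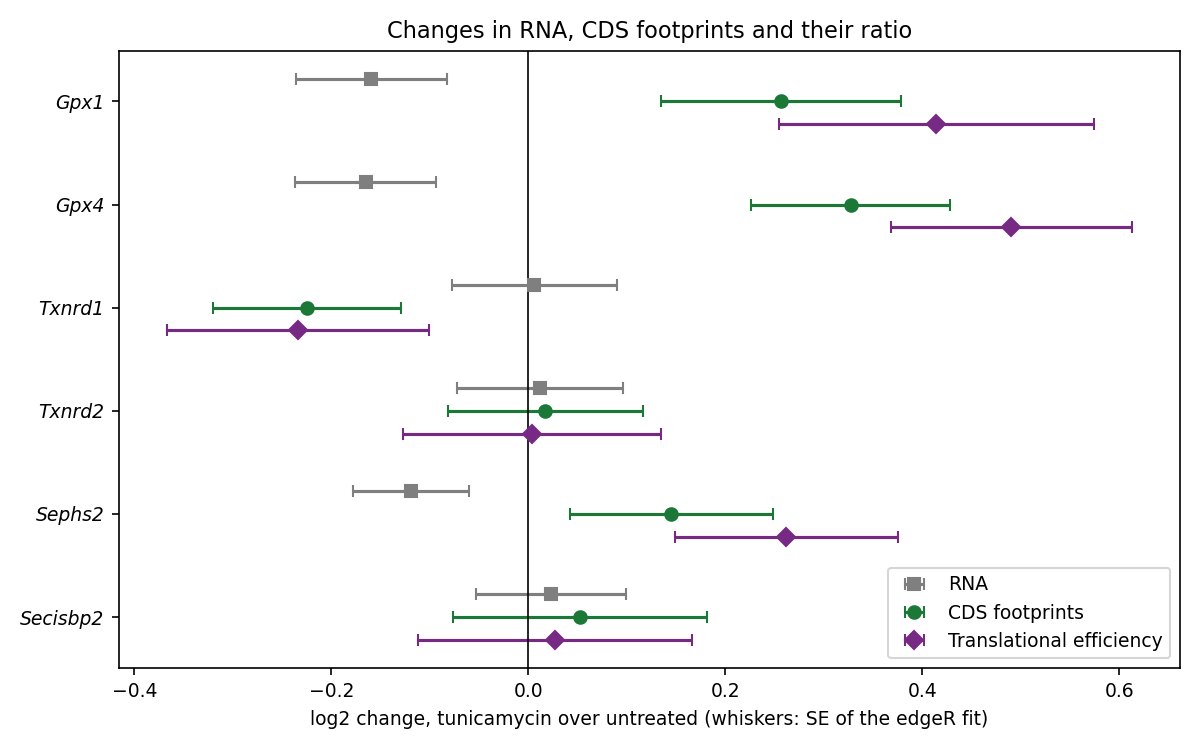
Log2 change, tunicamycin over untreated, of RNA, CDS footprints and their ratio for each gene, with the SE of the edgeR fit as whiskers. Gpx1, Gpx4 and Sephs2 have RNA estimates left of 0 and footprint estimates right of 0, Txnrd1 has its footprint and ratio estimates left of 0, and Txnrd2 and Secisbp2 lie near 0 in all 3.

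Ribosomes on the 5′ leader were set against those on the coding sequence of the same gene and library, since leader occupancy is what eIF2 phosphorylation is known to alter. Over all genes there were 8.53, 8.63 and 11.6 leader reads per 100 CDS reads under tunicamycin, against 5.44, 4.24 and 5.79 in untreated cells. With this shift across the whole table, 3122 of 9236 genes passed (33.8%), 3116 higher (33.7%) and 6 lower (0.065%), and the median log2 change of the ratio was 0.90 over the 8774 genes with leader reads. Of the 5 members with enough leader reads for a ratio, Txnrd1 and Sephs2 passed, both higher. Both were also the 2 of 5 whose groups did not overlap, where 47.8% of genes had every tunicamycin library higher.

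Txnrd1 had 31, 35 and 42 leader reads under tunicamycin, against 22, 18 and 28 in untreated cells. Per 100 CDS reads these were 2.27, 2.82 and 3.38 under tunicamycin, against 0.974, 0.901 and 1.53 in untreated cells. Every tunicamycin library lay above every untreated one. The log2 change of the ratio was 1.32 ± 0.34 (adjusted p = 0.00242), which is 0.42 above the median gene.

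The Sephs2 leader drew many reads relative to its coding sequence. It had 143, 123 and 182 leader reads under tunicamycin, against 125, 73 and 143 in untreated cells. Per 100 CDS reads these were 42.7, 35.2 and 53.7 under tunicamycin, against 31.1, 18.7 and 31.0 in untreated cells. The groups did not overlap, and the change of 0.71 ± 0.27 passed (adjusted p = 0.0368) while lying below the median gene at 0.90. It no longer passed with DESeq2 (adjusted p = 0.154), without tunicamycin library 1 (0.0782) or 3 (0.175), or without untreated library 2 (0.192).

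Gpx1 had 13.5, 15.1 and 18.2 leader reads per 100 CDS reads under tunicamycin, against 10.9, 8.19 and 16.5 in untreated cells. Library 3 was again the highest in both groups, the groups overlapped, and the change of 0.44 ± 0.27 did not pass (adjusted p = 0.189). Gpx4 had few leader reads, 8, 1 and 11 under tunicamycin, against 3, 5 and 2 in untreated cells (1.06 ± 0.62, adjusted p = 0.178). Secisbp2 had 19, 19 and 8 leader reads under tunicamycin, against 22, 16 and 11 in untreated cells (0.30 ± 0.39, adjusted p = 0.583).

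Leader and CDS counts were also each scaled by their own totals, a choice made after seeing the data that removes the shift common to all leaders. Of 9236 genes 455 then passed (217 higher, 238 lower), and none of the 5 members tested. Txnrd1 then stood at 0.42 (adjusted p = 0.478) and Gpx4 at 0.19 (0.971). Gpx1 (-0.47, adjusted p = 0.0502), Secisbp2 (-0.61, 0.421) and Sephs2 (-0.20, 0.701) turned negative.

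Txnrd2 had no leader read in any library. Over its 2501 footprints, a count of 0 allows a leader share of up to 0.12%, counting error only. In RefSeq its first ATG, in the stretch shown above, lies 28 nt after the annotated start and is followed by a second ATG 9 nt further on.

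**Figure D3:**
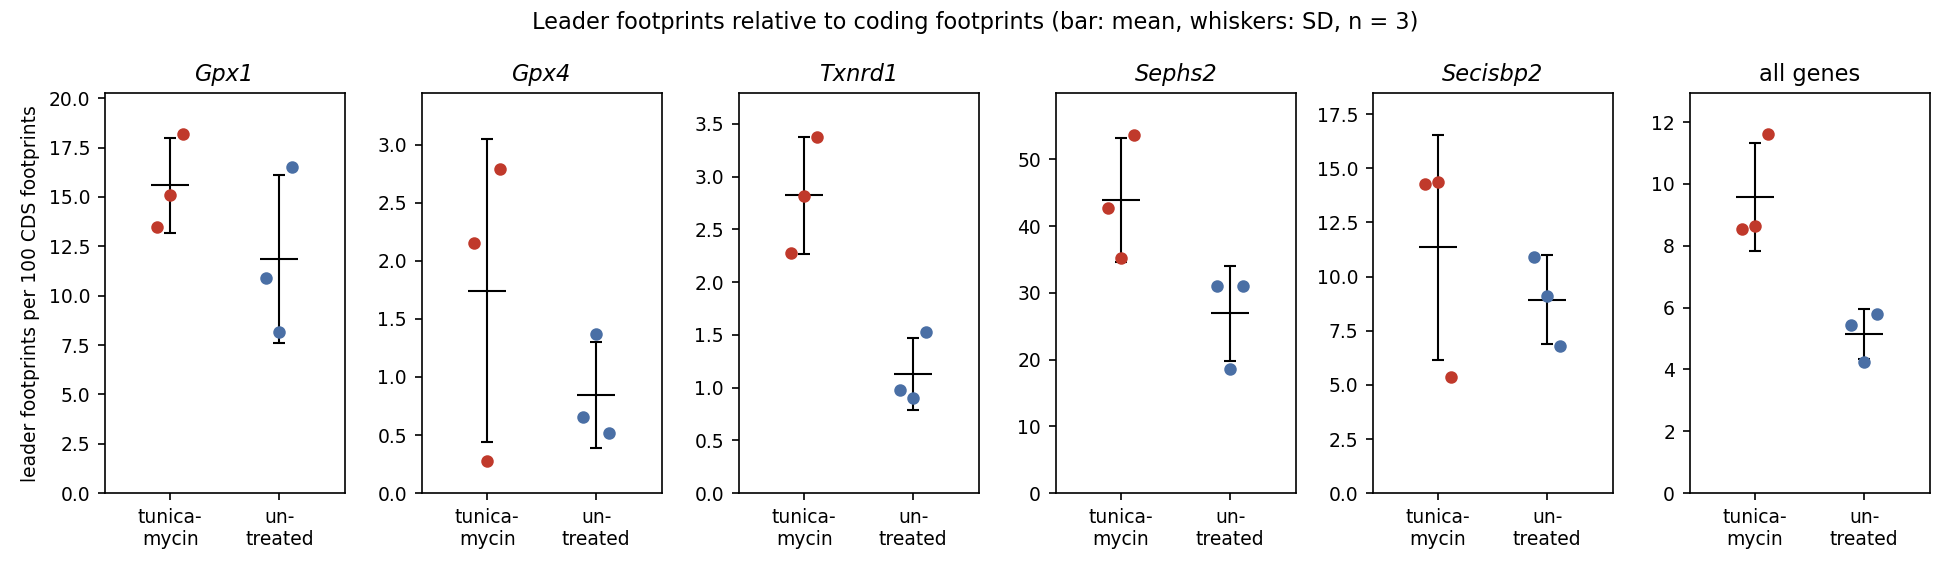
Leader footprints per 100 CDS footprints in each cycloheximide library, tunicamycin left and untreated right, for the 5 genes with leader reads and for all genes together. Bars are means and whiskers the SD of 3 libraries. In Txnrd1 and Sephs2 the groups do not overlap, as is also so for all genes together at 8.53 to 11.6 against 4.24 to 5.79.

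The 3′ UTR is where a selenoprotein mRNA holds its SECIS element, and footprints there were few. Over all genes they came to 2.24 ± 0.157 per 100 CDS reads under tunicamycin and 2.25 ± 0.106 in untreated cells (SD, n = 3 each). Of 9230 genes tested for a change of this ratio, 31 passed (0.336%), 23 higher (0.249%) and 8 lower (0.0867%), and 528 (5.72%) had an unadjusted p under 0.05. None of the 4 members with enough reads passed.

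Sephs2 had 12, 12 and 16 reads in its 3′ UTR under tunicamycin, against 17, 22 and 14 in untreated cells. Per 100 CDS reads this was 3.91 ± 0.702 under tunicamycin and 4.30 ± 1.30 in untreated cells, and the groups overlapped (-0.12 ± 0.39). Gpx1 had 10, 14 and 21 reads under tunicamycin, against 27, 16 and 24 in untreated cells, or 0.150 ± 0.0340 and 0.205 ± 0.0632 per 100 CDS reads (-0.41 ± 0.33). The groups overlapped.

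Txnrd1 had 19, 18 and 19 reads in its 3′ UTR under tunicamycin, against 14, 29 and 22 in untreated cells (0.45 ± 0.33). Secisbp2 had 4, 0 and 4 under tunicamycin, against 1, 4 and 2 in untreated cells (0.54 ± 0.82). The adjusted p of these 4 genes lay from 0.979 to 1. Txnrd2 had 1, 1 and 0 reads under tunicamycin and 0 in every untreated library. Gpx4 had no 3′ UTR read in any library. Its 2362 footprints allow a share of up to 0.127%.

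Harringtonine reads mark where ribosomes begin, and the deposited positions are those with at least 20 reads summed over 1 treatment. Gpx1 had 2 such positions, Gpx4 3, Txnrd1 2 and Sephs2 1. Txnrd2 and Secisbp2 had none, and since only positions above that minimum are listed, this sets no limit on their initiation. Per gene, 1 of 3681 genes passed (0.0272%), and 133 (3.61%) had an unadjusted p under 0.05, with 2 passing by DESeq2. Of 5123 sites merged from neighbouring positions, 0 passed in edgeR, 176 (3.44%) had an unadjusted p under 0.05 and 1 passed by DESeq2. No gene or site of the members passed.

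Gpx1, on the forward strand of chromosome 9, had the most harringtonine reads of the 6 genes. Its main position, 221 nt from the annotated gene start, had 1145, 1337 and 1864 reads under tunicamycin, against 862, 1138 and 1394 in untreated cells. A second position, 35 nt upstream and 186 nt from the gene start, had 106, 122 and 191 reads under tunicamycin, against 88, 81 and 172 in untreated cells. Library 3 was the highest in each of these groups, and all overlapped. The upstream position held 8.71 ± 0.509% of the gene's reads under tunicamycin and 8.96 ± 2.18% in untreated cells (SD, n = 3 each, exact permutation p = 1). Reads per gene changed by 0.03 ± 0.26 (adjusted p = 0.998).

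Gpx4, on chromosome 10, had its reads at 3 positions within 39 nt. The last, at 80053713, had 34, 29 and 39 reads under tunicamycin, against 24, 17 and 23 in untreated cells. The neighbouring position 80053712 had 17, 25 and 28 under tunicamycin, against 16, 22 and 26 in untreated cells. The first, 80053674, had 7, 5 and 8 under tunicamycin, against 3, 5 and 3 in untreated cells. Raw reads at the last position did not overlap, but reads kept per library were also more under tunicamycin, and the scaled change per gene was 0.15 ± 0.26 (adjusted p = 0.998).

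The first kept position of Gpx4 lies 42 nt after the upstream ATG shown above, and the last 81 nt after it. No kept position lies 12 or 13 nt before that ATG. This distance was measured against the other genes. Of 1080 kept positions inside a RefSeq start window of their own gene, 187 (17.3%) had an ATG 12 nt (81 positions) or 13 nt (106 positions) downstream. Counts were also raised near the ATG itself, with 33 positions at 0 nt and 40 at 1 nt, the highest at another distance within 45 nt. The median over the other distances was 4. For Gpx4 only the upstream ATG was measured, so these distances do not show whether its kept positions mark another start.

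Txnrd1 has both of its kept positions at this spacing, 13 and 12 nt before the ATG in the stretch shown above and 17 and 18 nt after the third of its 3 annotated starts. The first, 82860358, had 11, 12 and 23 reads under tunicamycin, against 8, 12 and 14 in untreated cells. The second, 82860359, had 9, 20 and 5 under tunicamycin, against 4, 3 and 6 in untreated cells. The libraries overlapped at both, and their summed reads changed by 0.45 ± 0.37 (adjusted p = 0.998). Sephs2, on the reverse strand of chromosome 7, had 1 position 196 nt from its gene start with 11, 5 and 7 reads under tunicamycin, against 10, 5 and 8 in untreated cells. Its 46 reads were too few for the test.

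**Figure D4:**
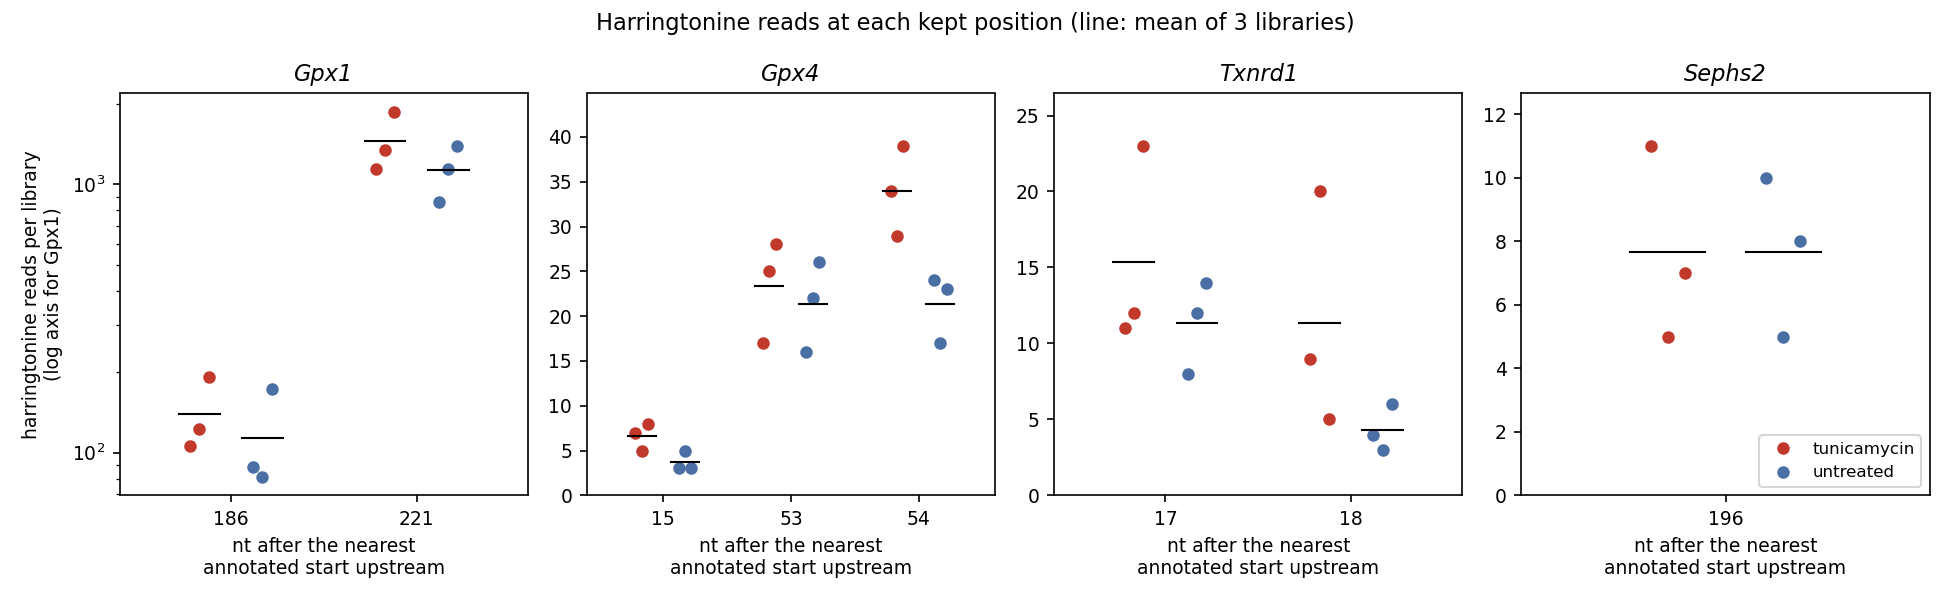
Harringtonine reads at each kept position of the 4 genes that have any, 1 point per library, tunicamycin left of untreated at each position and lines at the mean of 3 libraries, with a log axis for Gpx1 only. The horizontal axis gives the distance in nt from the nearest annotated start upstream, and the Gpx1 position at 221 nt has at least 862 reads in every library, while the other genes have at most 39.

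**Figure D5:**
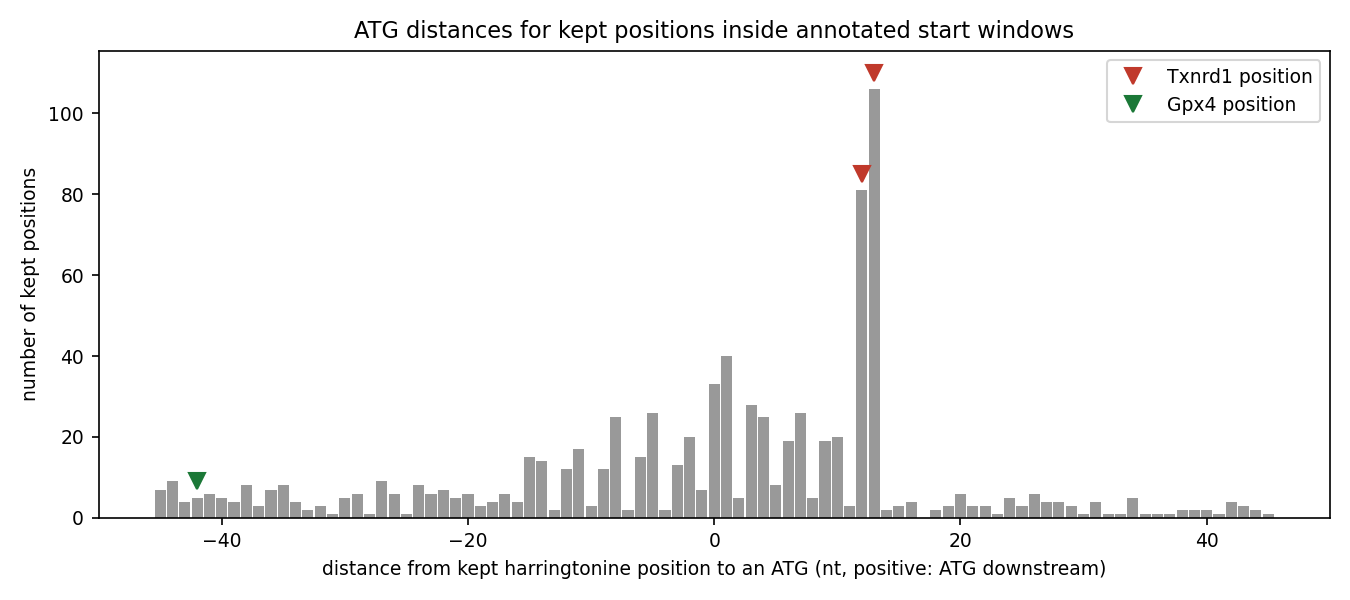
Number of kept harringtonine positions, among 1080 inside a RefSeq start window of their gene, with an ATG at each distance (nt, positive where the ATG lies downstream). The bars at 12 and 13 nt hold 81 and 106 positions. Markers show the Txnrd1 positions at those distances and the first Gpx4 position 42 nt after the upstream ATG. The Gpx4 positions 80053712 and 80053713 are not marked, though they had 134 and 166 reads over all libraries, against 31 at the first.

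Other selenoprotein genes were read from a list of 19, of which 18 were in the table. In CDS footprints 1 of 13 tested was higher and none lower, with a median log2 change of 0.10 against 0.0022 over all genes. That gene was Sepw1, which encodes a small selenoprotein of the thioredoxin-like fold. Its footprints were 138, 174 and 206 CPM under tunicamycin, against 108, 107 and 96.9 CPM in untreated cells, a change of 0.73 ± 0.12 (adjusted p = 0.00516). Sepw1 RNA lay lower at 164, 196 and 184 CPM under tunicamycin, against 205, 232 and 197 CPM in untreated cells, and did not pass. Its translational efficiency was higher by 0.95 ± 0.16 (adjusted p = 0.0120), the 1 of 13 that passed. The 13 include Dio3, whose mean RNA was 0 CPM (SE 2140), so no ratio could be estimated for it. In RNA 0 of 12 passed. The leader ratio passed higher in 5 of 11 (2700094K13Rik, Ept1, Msrb1, Selt and Sep15), with a median of 0.61, beside 33.7% higher and a median of 0.90 over all genes. Of these 5, only 2700094K13Rik still passed both with DESeq2 and with each feature scaled by its own totals, under which Msrb1 turned to -0.031. Without single libraries Ept1, Msrb1, Selt and Sep15 each also failed to pass at least once, with adjusted p up to 0.109, 0.159, 0.114 and 0.148. None of 9 passed in the 3′ UTR ratio and none of 4 in harringtonine reads.

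The genes of the selenocysteine machinery, which charge the tRNA, bind the SECIS element or handle the mRNA, were 11 and all in the table. None passed in RNA, CDS footprints or translational efficiency. The 3 with the smallest p in footprints were Rpl30, a ribosomal protein gene with many pseudogenes and so with uncertain counts (-0.38, adjusted p = 0.136), Pstk, the kinase that primes the tRNA for selenium (0.28, 0.312), and the Secisbp2 paralogue Secisbp2l (-0.34, 0.326). The leader ratio passed higher in 4 of 11, Xpo1, Sephs1, Ncl and Rpl30, with a median of 0.78, beside 33.7% and 0.90 over all genes. With each feature scaled by its own totals Rpl30 no longer passed (adjusted p = 0.0827). In footprints Rpl30 passed with no filter (0.0033) and without untreated library 1 (0.0409). None of 10 passed in the 3′ UTR ratio and none of 7 in harringtonine reads.

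Of 23 antioxidant enzymes that lack selenocysteine, 21 were tested in RNA, footprints and translational efficiency, and none passed. The 3 with the smallest p in footprints were Prdx6 (-0.23, adjusted p = 0.163), the glutathione reductase gene Gsr (-0.25, 0.269) and Prdx4 (-0.18, 0.326). The leader ratio passed higher in 11 of 20 (Prdx1, Prdx2, Prdx3, Prdx4, Prdx6, Txn1, Txn2, Txnl1, Gclm, Cat and Sod2), with a median of 1.12, beside 33.7% and 0.90 over all genes. With each feature scaled by its own totals, Prdx1, Prdx2 and Txnl1 alone of these still passed, and Cat (-0.13) and Sod2 (-0.15) turned negative. Cat, Gclm and Sod2 also did not pass with DESeq2 (adjusted p from 0.0548 to 0.115), nor without some single libraries (up to 0.0726, 0.0825 and 0.163). In the 3′ UTR ratio 1 of 21 passed, Prdx1, on 3, 3 and 8 reads under tunicamycin against 0 in every untreated library. It did not pass with DESeq2 (adjusted p = 0.995) or without tunicamycin library 3 (0.156). None of 13 passed in harringtonine reads.

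Genes most like each member were sought by the Pearson correlation of log2 CPM over the 6 RNA and 6 CDS libraries, each assay centred on its own mean, among 9218 genes. The libraries share their depth and treatment across all genes, and these values are descriptions of 12 libraries. Gpx1 was closest to Mrps21 (0.962) and Pfn1 (0.96), and Gpx4 to Cd14 (0.939) and Cib1 (0.935). Txnrd1 was closest to Papd4 (0.969) and Gsr (0.966), and Sephs2 to Yaf2 (0.964) and Klhl25 (0.923). Secisbp2 was closest to Utp18 (0.891) and Gopc (0.885), and Txnrd2, with the lowest values, to Tlcd2 (0.846) and Xrcc4 (0.822). Among the members, Gpx1 and Sephs2 had the highest value (0.759) and Gpx1 and Txnrd1 the lowest (-0.588).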

How the data were processed

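Whole-number read counts were deposited by the authors: footprint counts for leader, CDS and 3′ UTR and RNA counts per gene in 1 table, and harringtonine counts at single positions. Per the submitters' processing notes, STAR, HTSeq and edgeR were used with mm10 and GRCm38. The sources used here do not give their versions or counting options. The RNA count was the same on each line of a gene and was used once.

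Counts were tested in R 4.3.3 with edgeR 4.0.16 (TMM, filterByExpr with a minimum count of 10 and a minimum total of 15, glmQLFit and glmQLFTest, Benjamini-Hochberg over all features tested). Leader and 3′ UTR ratios were tested as the interaction of feature and treatment with the library as a term, and needed at least 10 feature reads to be reported. Harringtonine positions within 10 nt were merged into sites. DESeq2 1.42.0, other filters and scalings, the replicate block and leaving out each library were alternatives. The tests were also run on counts simulated with the fitted spread between libraries. For the ratios these had the same feature shares in every library, and so no shift common to all leaders. Nothing above rests on that run.

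The members and lists were chosen with earlier results of these data known. All 6 members are named. Of each list, every gene that passed is named, and otherwise up to 3 with the smallest p.

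Tunicamycin and untreated libraries share replicate numbers. Deviations from the group means correlated between same-numbered libraries by 0.416, 0.312 and 0.191 in RNA and by 0.348, 0.0943 and 0.277 in cycloheximide. Tunicamycin RNA library 3 correlated about as much with untreated library 2 (0.19) as with untreated library 3. The labels do not say whether a number marks a shared culture in either assay. The main tests therefore left the number out, and the replicate block was run as an alternative for every comparison. Harringtonine columns name a treatment and a number. Sequences and gene positions come from RefSeq GRCm38.p6, which matched 19599 gene symbols and all 6 members. No whole genome or protein sequence was used here.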

Additional observations from a re-analysis of the deposited data

How the results depend on the processing

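Over the members, no change passed in RNA under any alternative run. Genes passing in RNA, 16 in edgeR with TMM, came to 114 with DESeq2, 122 with no filter, 9 with a floor of 5 CPM, 410 with the replicate block, and 3 to 26 without 1 library. In CDS footprints they came to 573 with no filter and 58 to 431 without 1 library, and 0 to 1 of the members passed without 1 library. In translational efficiency they came to 354 of 10154 with DESeq2, 421 of 15497 with no filter and 130 of 8112 with a floor of 5 CPM. Without 1 library they came to 18 to 272. Of the 6 members, 1 passed with DESeq2, 2 with no filter, 1 with a floor of 5 CPM and 0 to 1 without 1 library. For the leader ratio DESeq2 gave 1340 of 9236 genes and 1 of 5 members, and own scaling of each feature 455 and 0 of the same. Leaving out 1 library gave 1403 to 2733 genes and 1 to 2 members. For the 3′ UTR ratio DESeq2 gave 0 and leaving out 1 library 12 to 35. For harringtonine reads per gene DESeq2 gave 2, positions inside the gene span 0, the block 3 and leaving out 1 library 0 to 2; for sites DESeq2 gave 1, the block 5 and leaving out 1 library 0 to 4. The cause of these differences was not tested.

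Whether a replicate number marks a shared culture is not given by the labels. The block on that number gave 885 of 9265 genes and 3 of 6 members in CDS footprints. In translational efficiency it gave 737 of 10154 genes and 2 of 6 members. The members were Gpx1 (adjusted p = 0.0174), Gpx4 (0.025) and Txnrd1 (0.0357) in footprints, and Gpx1 (0.0139) and Gpx4 (0.00747) in translational efficiency. Every cycloheximide library correlated best with its own number. The block changed no other call of a member. In footprints it also let Rpl30 (-0.37, adjusted p = 0.00629), Prdx6 (-0.23, 0.025) and Gsr (-0.24, 0.0387) pass.

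Some directions turned. With library totals in place of TMM, Txnrd1 RNA was at -0.0033, Txnrd2 translational efficiency at -0.0016 and the upstream Gpx1 site at -0.0033; that site was at -0.0029 with no filter and with a floor of 5 CPM. Gpx4 position 80053712 without merging was at -0.17. With each feature scaled by its own totals, leader ratios turned to -0.47 for Gpx1, -0.61 for Secisbp2, -0.20 for Sephs2, -0.13 for Cat, -0.031 for Msrb1 and -0.15 for Sod2, of which Sephs2, Cat, Msrb1 and Sod2 had passed as higher; the other changes that turned had not passed. Without 1 library in turn, RNA ranged from -0.019 to 0.10 for Secisbp2, -0.081 to 0.083 for Txnrd1 and -0.047 to 0.091 for Txnrd2. Footprints ranged from -0.027 to 0.13 for Secisbp2 and -0.066 to 0.058 for Txnrd2, and translational efficiency from -0.052 to 0.11 and -0.076 to 0.060 in the same order. The Sephs2 3′ UTR ratio ranged from -0.33 to 0.12, Gpx1 harringtonine reads from -0.21 to 0.22, its upstream site from -0.28 to 0.46 and its main site from -0.16 to 0.24.

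The thinnest values were the 30 leader reads of Gpx4, the 15 3′ UTR reads of Secisbp2 and the 46 harringtonine reads of Sephs2, summed over 6 libraries.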
